A study of Mus musculus with 12 samples.

Results

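The HoxB genes are the 10 genes Hoxb1, Hoxb2, Hoxb3, Hoxb4, Hoxb5, Hoxb6, Hoxb7, Hoxb8, Hoxb9 and Hoxb13 on mouse chromosome 11, out of 21755 protein-coding genes annotated on chromosomes 1 to 19 and X. They were followed one by one in chromatin contact maps of mouse embryonic stem cells (ESC) and of neuronal committed cells (NCC). Members were fixed by position and not by any measured value: every interaction with an anchor in the 182 kb window chr11:96190000-96372000 (mm10) was taken, and each such anchor was assigned to the HoxB gene nearest to its midpoint. Partners were counted out to chr11:95200000-97400000, in 3 classes. A read pair was within the cluster when both anchors lay in the window, on the lower side when the partner lay at lower coordinates (beyond Hoxb13), and on the Skap1 side when it lay at higher coordinates (beyond Hoxb1).

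Both cell types were the E14Tg2A mouse ESC line. ESC were grown on gelatin with 100 U/mL LIF, a cytokine that keeps them undifferentiated, and NCC were the same cells after 48 h of 1 μM retinoic acid without LIF. Each was mapped by Hi-C, which counts all ligated pairs of DNA fragments, and by HiChIP with an antibody against FGFR1 or CTCF, which counts the pairs that come down with that protein. FGFR1 is a growth factor receptor that also acts in the nucleus, and CTCF is the DNA-binding protein at most loop anchors and domain borders. The files hold contacts and no RNA levels, so the cell types were not checked against marker genes.

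Each deposited table merges 2 biological replicates, which leaves 1 pooled library for each cell type and assay and no measure of the spread between replicates. The ESC libraries held 20790622 read pairs in Hi-C, 2679131 with FGFR1 and 1226039 with CTCF, and the NCC libraries 21279750, 3232003 and 1065662. All ratios below are NCC over ESC after scaling each library to its table total. Their 95% intervals are exact, cover counting error only, and treat read pairs as independent molecules, which reads without molecular identifiers are not. A ratio compares 2 pooled libraries of bulk cells, in which a contact made in more cells and one made more often per cell cannot be told apart.

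Hox genes encode homeodomain transcription factors that give cells their position along the head-to-tail axis. Their order on the chromosome matches the order in which they are expressed: the genes at the Hoxb1 end act first and in the hindbrain, and those toward Hoxb13 act later and further back. Retinoic acid turns on the Hoxb1 end of the cluster in ESC, in part through retinoic acid response elements, which are direct repeats bound by the retinoic acid receptors. Silent Hox clusters in ESC carry Polycomb proteins and fold into a compact domain.

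All 10 genes lie on the plus strand, and in mm10 coordinates their order is Hoxb13 (96194316 to 96197447), Hoxb9 (96271457 to 96276595), Hoxb8 (96281905 to 96285315), Hoxb7 (96286623 to 96290162), Hoxb6 (96292476 to 96301569), Hoxb5 (96303336 to 96306121), Hoxb4 (96318267 to 96321638), Hoxb3 (96323326 to 96347930), Hoxb2 (96350525 to 96354012) and Hoxb1 (96365752 to 96368256). The window also holds the microRNA genes Mir196a-1 and Mir10a and the RNA genes Hoxb5os, Hoxb3os and Gm53, whose contacts cannot be separated from those of the HoxB genes they overlap or adjoin. Hi-C had 27 anchors in the window in ESC and 24 in NCC, covering 60.9% and 59.3% of it, and 9 of them had the same start and end in both. Anchors were called by the authors in each library by itself, so a sum over a gene also moves with how much of it was called. Hi-C anchors went from 27.559 kb in ESC to 23.983 kb in NCC at Hoxb13 and from 22.992 to 21.949 kb at Hoxb9. At Hoxb3 they went from 9.535 to 8.907 kb and at Hoxb2 from 14.813 to 16.218 kb. For the other genes, Hi-C anchor lengths are described with the sums. Hoxb7 had no Hi-C anchor of its own, because a single anchor of 7586 bp (96281897 to 96289483, identical in ESC and NCC) spans Hoxb8 and most of Hoxb7. That anchor is counted under Hoxb8 and is called the Hoxb8/Hoxb7 anchor here.

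The window was searched for the sequence elements that the treatment and the HiChIP targets point to, on both strands of the GRCm38 genome of RefSeq. A retinoic acid response element was taken as a direct repeat of the unit AGGTCA (each copy could also read AGTTCA, or GGGTCA where its first base differs, or GGTTCA where both differ), with 5 bases between the copies (DR5) or 2 bases (DR2), and CTCF sites by the CTCF consensus motif. They are shown because they place the elements against the anchors described later. The capitals mark the repeats or the motif, and the letters beside them are the next bases of the genome.
DR5-1: gagaaAGGTCAgggaaGGGTCAacacc
DR5-2: atctcGGTTCAagaagAGTTCAcaagc
DR2-1: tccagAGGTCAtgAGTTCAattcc
CTCF-1: ctgtcCCACTAGGGGGCcctag
DR5-1 (chr11:96212029-96212045, minus strand) lies 14590 bp downstream of Hoxb13. DR5-2 (chr11:96341236-96341252, plus strand) lies inside the Hoxb3 gene body, 17918 bp from its start. DR2-1 (chr11:96359136-96359149, plus strand) lies 5131 bp downstream of Hoxb2. CTCF-1 (chr11:96265875-96265886, minus strand) lies 5576 bp upstream of Hoxb9. Of 14095 genome windows of the same length, 45.2% held a DR5 match and 13.6% held 2 or more, 78.2% held a DR2 match and 50.4% a CTCF match. Hi-C anchors of both cell types covered DR5-2 and DR2-1, while DR5-1 lay in an anchor of NCC FGFR1 HiChIP and of no other library. CTCF-1 lay in no anchor of the 6 libraries.

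The whole window lost contacts within itself and gained contacts with the Skap1 side. Within the cluster, Hi-C held 2074 read pairs in ESC and 1540 in NCC, a ratio of 0.725 (95% interval 0.679–0.775). To the Skap1 side there were 1929 read pairs in ESC and 2427 in NCC, a ratio of 1.23 (1.16–1.31). The lower side, with 1439 and 1394 read pairs, had an interval that included 1 (0.946, 0.879–1.02). When both anchors of a pair had to be identical in ESC and NCC, the ratios within the cluster and to the Skap1 side kept these directions.

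The genes differed in how many contacts their anchors carried, also per length. Scaled to a library of 1000000 read pairs and per kb of anchor, the Hi-C level in ESC ran from 2.15 read pairs at Hoxb13 to 6.11 at Hoxb5, and in NCC from 2.06 at Hoxb13 to 3.93 at Hoxb5. Hoxb13 was lowest and Hoxb5 highest in both cell types. Between them in ESC stood Hoxb2 (2.52), Hoxb1 (2.65), Hoxb9 (3.06), Hoxb4 (3.43), Hoxb8/Hoxb7 (3.70), Hoxb3 (4.04) and Hoxb6 (4.30). With 1 pooled library per cell type, this order has no spread over samples, and neighbours in it such as Hoxb2 and Hoxb1 cannot be ranked. The position of Hoxb5 rests on a small anchor, 2.415 kb in ESC against 13.218 kb in NCC.

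**Figure D1:**
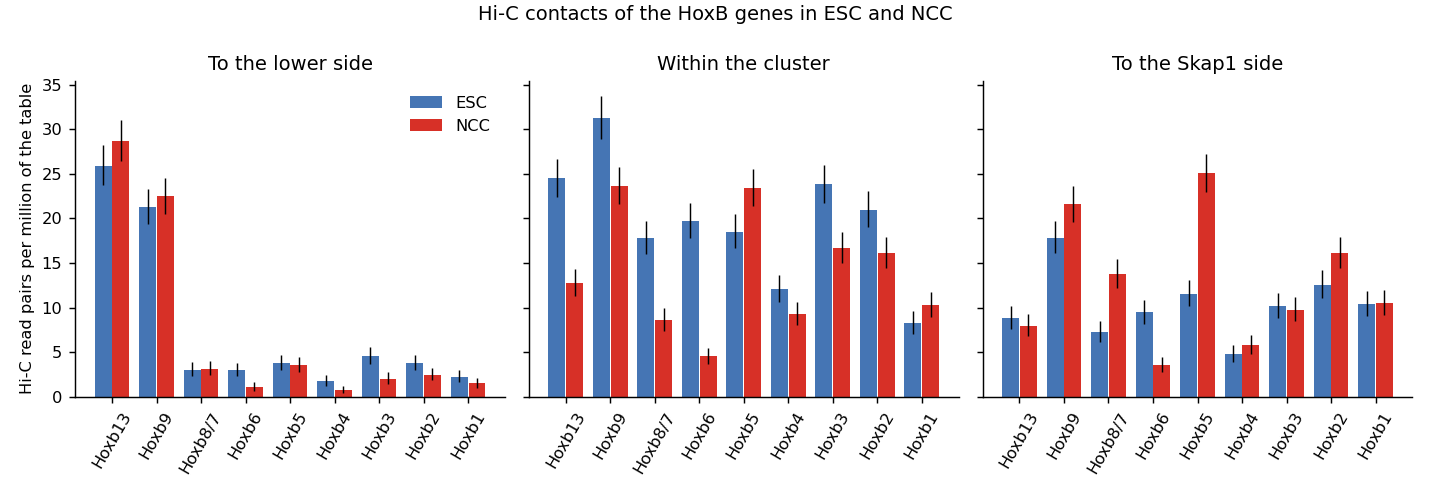
Hi-C read pairs, scaled to 1000000 read pairs of the library, for each HoxB gene (horizontal axis, chromosome order) within the cluster, to the lower side and to the Skap1 side, with bars for ESC and NCC and lines for exact 95% counting intervals; overlapping anchors of ESC and NCC were merged before assignment. The ESC bar is the taller for contacts within the cluster at all genes shown except Hoxb5 and Hoxb1. To the Skap1 side the NCC bar is the taller at Hoxb9, Hoxb8/Hoxb7, Hoxb5, Hoxb4 and Hoxb2, and slightly at Hoxb1.

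Assignment by midpoint sends 1 stretch of DNA to different genes in the 2 cell types. The ESC anchor 96310980 to 96316321 is nearest to Hoxb4, while the NCC anchor 96308011 to 96316321 over the same DNA is nearest to Hoxb5. By midpoint, Hoxb5 rose from 176 to 497 read pairs within the cluster (2.76) and Hoxb4 fell from 437 to 197 (0.440). With overlapping anchors merged first, a setting added after the data were seen, the ratios were 1.26 (1.10–1.44) at Hoxb5 and 0.767 (0.633–0.928) at Hoxb4. By midpoint, the Skap1-side ratio was 5.79 at Hoxb5 and 0.483 at Hoxb4, and the lower-side ratio 1.79 and 0.211. The merged values are used for this pair of genes in what follows. The comparison with all genes and the closing section on processing are exceptions, where anchors are assigned by midpoint unless stated. For the other genes the 2 assignments give the same Hi-C values. Assigned instead to the nearest 5′ end of a gene, the anchors moved between neighbours, and the direction turned at Hoxb5 within the cluster (log2 ratio -1.30), at Hoxb4 within the cluster (0.10), at Hoxb6 in all 3 classes and at Hoxb8 and Hoxb5 to the Skap1 side. With every gene body widened by 5 kb, Hoxb5 also fell within the cluster (-0.45), Hoxb4 was at 0.054 and Hoxb6 rose to the Skap1 side (0.42). The values of a gene are therefore those of the anchors assigned to it, and single anchors are given beside them.

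Contacts within the cluster were fewer in NCC at the genes from Hoxb13 to Hoxb6. Hoxb13, which acts in the tail bud and prostate, had 509 read pairs in ESC and 271 in NCC (ratio 0.520, 0.447–0.604). Hoxb9, which patterns the ribs of the thorax, went from 649 to 503 (0.757, 0.673–0.852). The Hoxb8/Hoxb7 anchor, over genes of the trunk of which Hoxb8 also acts in myeloid progenitors, went from 370 to 182 (0.481, 0.400–0.575), with the same 7586 bp counted in both. At Hoxb6, a trunk gene, the count went from 409 to 96 (0.229, 0.182–0.287), but its anchors shrank from 7.475 to 2.827 kb, and per kb of anchor the ratio was 0.606. All 4 intervals lay below 1. Per kb of anchor the ratios were 0.598 at Hoxb13 and 0.793 at Hoxb9. Anchor length and cell type cannot be told apart at Hoxb6.

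At the Hoxb1 end the read pairs within the cluster went both ways. Hoxb5, with roles in the neural crest and gut nervous system, went from 385 to 497 read pairs in the merged anchors (1.26), but these grew from 7.756 to 13.218 kb, and per kb of anchor the ratio was 0.740. Hoxb4, expressed in the caudal hindbrain and in blood stem cells, went from 251 to 197 in an anchor that is identical in both libraries. Hoxb3, another caudal hindbrain gene, went from 495 to 355 (0.701, 0.610–0.805), and Hoxb2, needed for hindbrain segments and facial motor neurons, from 436 to 342 (0.766, 0.663–0.885). Per kb of anchor the ratios were 0.750 at Hoxb3 and 0.700 at Hoxb2. Hoxb1, which specifies a hindbrain segment and is the first of the set that retinoic acid turns on, had 172 read pairs in ESC and 218 in NCC in an anchor of the same ends (1.24, 1.01–1.52). When its partners had to be identical too, its log2 ratio turned to -0.17, with an interval that included 0. By both assignments, 7 of the 9 genes with Hi-C anchors had an interval below 1 within the cluster and 2, Hoxb5 and Hoxb1, above 1, of which neither stayed above 1 once anchor length (Hoxb5) or identical partners (Hoxb1) were taken into account. Pairs between 2 genes count for both, so these 9 intervals are not independent. The closest measure that could be computed for all genes, near pairs defined further down, was called lower at 32.0% of genes and higher at 26.1%.

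Contacts to the Skap1 side had their highest ratios at Hoxb5 and Hoxb8/Hoxb7. Hoxb5 had 240 read pairs in ESC and 533 in NCC (2.17, 1.86–2.54), a ratio of 1.27 per kb of anchor. The Hoxb8/Hoxb7 anchor, of unchanged length, had 151 and 293 (1.90, 1.55–2.32). Hoxb2 (261 to 343; 1.28, 1.09–1.51) and Hoxb9 (371 to 459; 1.21, 1.05–1.39) rose less. Per kb of anchor the ratios were 1.17 at Hoxb2 and 1.27 at Hoxb9. Hoxb1, the member nearest to Skap1, had 216 read pairs in ESC and 224 in NCC (1.01, 0.837–1.23), and Hoxb3 had 211 and 208 (0.963, 0.791–1.17). Neither of these intervals excluded 1, and nor did those of Hoxb4 (99 to 123; 1.21, 0.924–1.60) and Hoxb13 (183 to 169; 0.902, 0.728–1.12). In NCC, Hoxb3 lacked an anchor that held 70 of its ESC read pairs on this side. Per kb of anchor the ratios were 1.03 at Hoxb3 and 1.04 at Hoxb13. Hoxb6 was the single gene to fall on this side (197 to 75; 0.372, 0.281–0.488), at a ratio of 0.984 per kb of anchor.

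On the lower side, 3 genes of the Hoxb1 end and Hoxb6 had fewer contacts in NCC. Hoxb3 went from 94 to 43 read pairs (0.447, 0.304–0.648), Hoxb4 from 37 to 16 (0.422, 0.219–0.778) and Hoxb2 from 78 to 52 (0.651, 0.450–0.937). Per kb of anchor the ratios were 0.478 at Hoxb3 and 0.595 at Hoxb2. At Hoxb6 the count went from 62 to 23 (0.362, 0.214–0.593), which per kb of anchor was a ratio of 0.958. Hoxb1, with 46 and 32, had an interval that included 1 (0.419–1.09), and so did Hoxb5 with 78 and 75 (0.675–1.31). Hoxb13, the gene that faces this side, had 539 and 609 (1.10, 0.981–1.24), Hoxb9 442 and 478 (1.06, 0.926–1.21) and Hoxb8/Hoxb7 63 and 66 (1.02, 0.714–1.47). Per kb of anchor, Hoxb13 stood at 1.27 and Hoxb9 at 1.11.

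**Figure D2:**
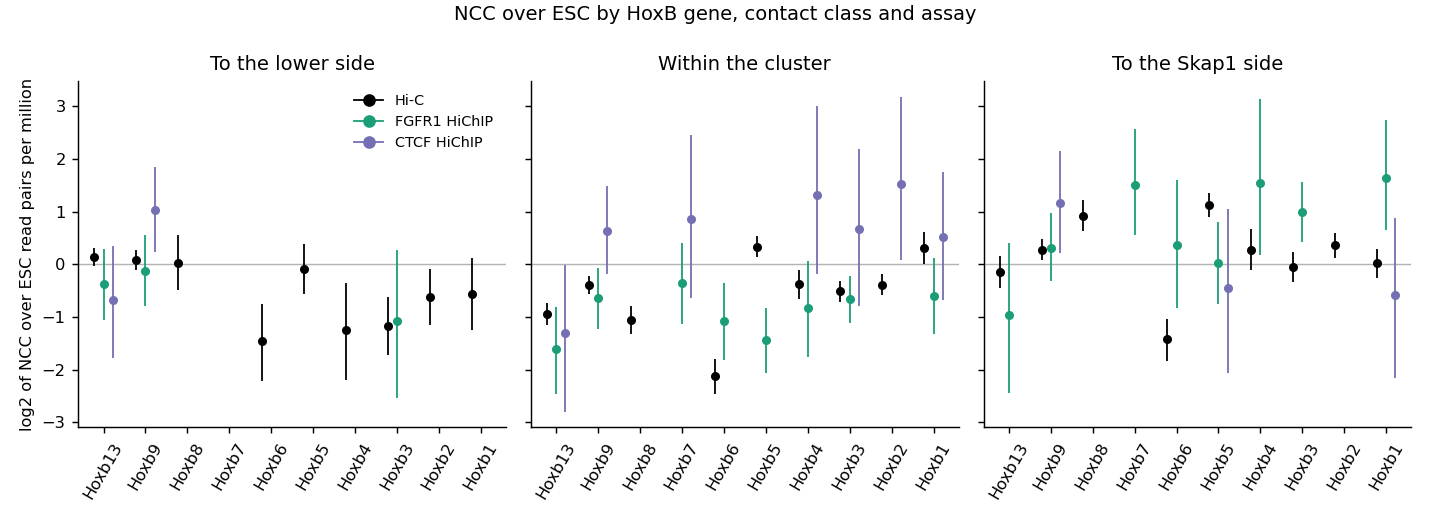
NCC over ESC ratio of scaled read pairs (log axis) for each HoxB gene and class in Hi-C, FGFR1 HiChIP and CTCF HiChIP, with exact 95% counting intervals; overlapping anchors were merged, and a point is drawn where both libraries had at least 5 read pairs. In Hi-C within the cluster, Hoxb5 (1.26) and Hoxb1 (1.24) are the points above 1, and to the Skap1 side Hoxb5 (2.17) and Hoxb8/Hoxb7 (1.90) are the highest.

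Single anchors show where within a gene these differences lay. Of the Hoxb13 anchors, 1 covers the gene (96189333 to 96197003 in ESC, extended to 96186855 in NCC), and it had 205 read pairs within the cluster in ESC and 100 in NCC (0.477, 0.371–0.608). The next one, 96202362 to 96204576, is identical in both and gave 110 and 55 (0.489, 0.347–0.681). The last Hoxb13 anchor before those of Hoxb9, 96231484 to 96235905, had 69 and 74 (1.05, 0.745–1.48) within the cluster and 70 and 120 (1.67, 1.24–2.28) to the lower side. The anchors 96213378 to 96216220 and 96223023 to 96225249, also counted for Hoxb13, were called in ESC only. The values of Hoxb13 are sums over unlike stretches.

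At Hoxb9 the anchor over the start of the gene had an interval below 1 within the cluster, unlike the upstream anchors called in both cell types. This identical anchor (96268591 to 96273619) went from 224 to 145 read pairs within the cluster (0.632, 0.510–0.783) and from 106 to 160 to the Skap1 side (1.47, 1.15–1.90). Both identical anchors upstream of it (96248315 to 96249740 and 96250881 to 96253026) had ratios within the cluster of 0.977 and 0.924, with intervals that included 1. The next anchor upstream, 96257455 to 96265641, had 169 and 163 read pairs within the cluster (0.942, 0.755–1.18). It also gained on the Skap1 side, from 72 to 113 (1.53, 1.13–2.09), over 5700 and 6264 bp.

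Both anchors of Hoxb5 gained on the Skap1 side. The one over the gene (96302041 to 96306949 in NCC, 2415 bp of it called in ESC and 4908 bp in NCC) went from 90 to 231 read pairs (2.51, 1.96–3.24). The one between Hoxb5 and Hoxb4 (96308011 to 96316321, 5341 and 8310 bp) went from 150 to 302 (1.97, 1.61–2.41). Both anchors were longer in NCC, and the ratio of 1.27 per kb given for the gene takes both together. Within the cluster, the first had 176 and 199 (1.10, 0.897–1.36) and the second 230 and 353 (1.4995, 1.27–1.78).

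Within Hoxb3, an anchor near the start of the gene (96324878 to 96328395) gained on the Skap1 side, with 40 and 84 read pairs (2.05, 1.39–3.07) over 2371 and 3517 bp. The identical anchor 96331433 to 96334197 had 50 and 61 there (1.19, 0.807–1.77) and lost contacts within the cluster, with 154 and 119 (0.755, 0.589–0.965), and to the lower side, with 27 and 10 (0.362, 0.156–0.771). The anchor that holds DR5-2 (96340263 to 96342889) had 171 and 163 read pairs within the cluster (0.931, 0.747–1.16), 26 and 16 to the lower side and 51 and 63 to the Skap1 side, and all 3 of its intervals included 1. A further Hoxb3 anchor, 96336205 to 96338131, was called in ESC only. It held 120 read pairs within the cluster, 23 to the lower side and 70 to the Skap1 side. The sums of Hoxb3 therefore compare partly different DNA.

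Pairs between HoxB genes fell mainly across the middle of the cluster. Of 42 combinations of genes with at least 10 Hi-C read pairs over both libraries, 19 had an interval below 1 and 6 above 1, with merged anchors. Split between Hoxb6 and Hoxb5, a division chosen after the values were seen, 13 of the 20 combinations across the division were below 1 and 0 were above. Among Hoxb13 to Hoxb6, 6 of 9 were below 1 and 1, the pairs among the anchors of Hoxb9, was above. An anchor of Hoxb9 (96245034 to 96247011, 67 read pairs within the cluster) was called in NCC only. Among Hoxb5 to Hoxb1, 0 of 13 were below 1 and 5 were above. No share was computed for combinations of genes elsewhere, so these counts have no background.

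The sums of these same read pairs had the same order, and are not a separate test. Across the division there were 704 read pairs in ESC and 288 in NCC (0.400, 0.347–0.459). Among Hoxb13 to Hoxb6 there were 800 and 540 (0.659, 0.590–0.736), and among Hoxb5 to Hoxb1 there were 570 and 712 (1.22, 1.09–1.36). The last sum includes the lengthened Hoxb5 anchors. With identical anchors at both ends, the values were 89 and 48 across the division (0.527, 0.363–0.757), 109 and 75 among Hoxb13 to Hoxb6 (0.672, 0.494–0.910), and 32 and 36 among Hoxb5 to Hoxb1 (1.10, 0.664–1.83). The rise among Hoxb5 to Hoxb1 was thus not detectable at the depth of the identical anchors.

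The outward contacts of both groups of genes differed as well. Hoxb5 to Hoxb1 went from 1027 to 1431 read pairs to the Skap1 side (1.36, 1.26–1.48) and from 333 to 218 to the lower side (0.640, 0.537–0.761). Hoxb13 to Hoxb6 went from 902 to 996 to the Skap1 side (1.08, 0.985–1.18) and from 1106 to 1176 to the lower side (1.04, 0.956–1.13). In identical anchors the Skap1-side ratio was 1.60 (1.21–2.13) for Hoxb13 to Hoxb6 and 1.11 (0.814–1.53) for Hoxb5 to Hoxb1, so the order of the groups on this side depended on which anchors were counted.

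Among single combinations, Hoxb5 with Hoxb2 went from 51 to 104 read pairs (1.99, 1.41–2.84), Hoxb5 with Hoxb1 from 18 to 42 (2.28, 1.28–4.21) and Hoxb2 with Hoxb1 from 58 to 91 (1.53, 1.09–2.17). These are pairs among genes of the Hoxb1 end, and those of Hoxb5 come from its longer NCC anchors. Hoxb13 with Hoxb3 went from 36 to 7 (0.190, 0.0713–0.433), Hoxb8/Hoxb7 with Hoxb2 from 61 to 14 (0.224, 0.116–0.406) and Hoxb9 with Hoxb3 from 61 to 17 (0.272, 0.149–0.472). All of these join the Hoxb13 end to the Hoxb1 end. The Hoxb8/Hoxb7 anchor with Hoxb5, the combination next to the division, did not follow them, with 32 read pairs in ESC and 47 in NCC (1.43, 0.897–2.32).

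Along the Skap1 side the gain ended about midway. In the 500 kb next to the window, all 10 bins of 50 kb had a ratio above 1 and 7 had an interval above 1, and their sum went from 1519 to 2123 read pairs (1.37, 1.28–1.46). In the next 500 kb, 7 of 10 bins were below 1, 3 of them with an interval below 1, and the sum went from 407 to 301 (0.723, 0.620–0.841). The anchors called in these stretches had similar total lengths in both cell types, 290 and 303 kb in the first and 297 and 302 kb in the second. On the lower side the first 500 kb went from 1266 to 1271 read pairs (0.981, 0.907–1.06) and the next 500 kb from 173 to 123 (0.695, 0.547–0.880).

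**Figure D3:**
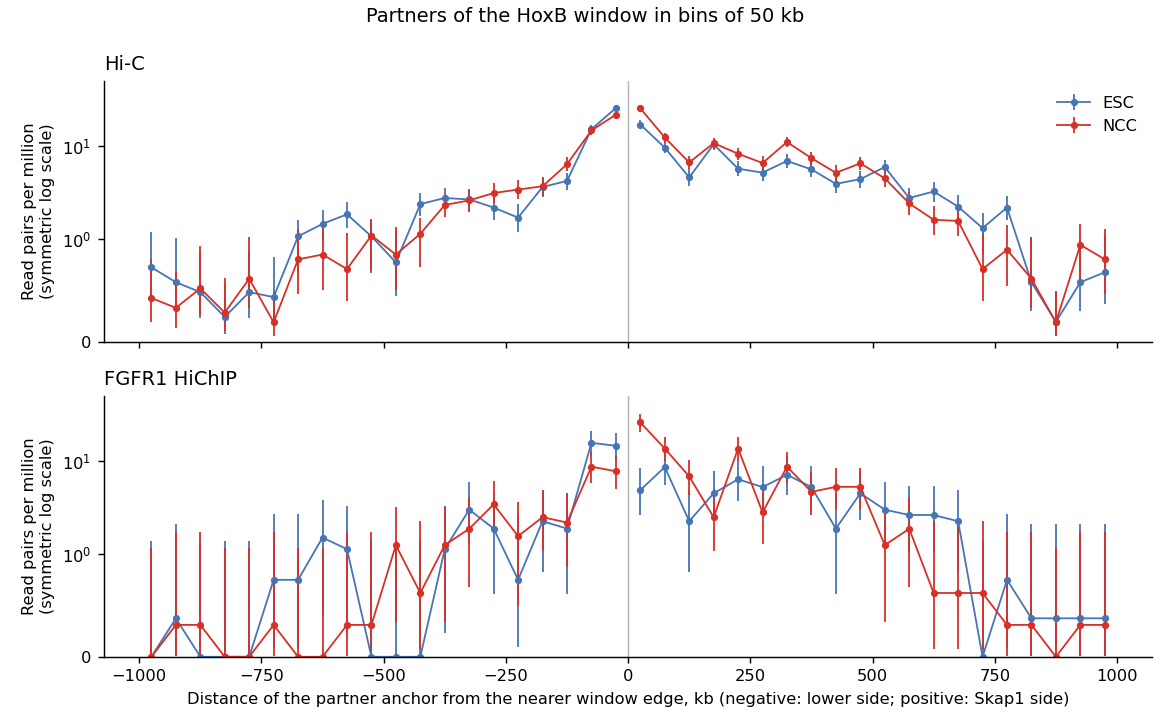
Read pairs, scaled to 1000000 read pairs of the library, between the HoxB window and partners in 50 kb bins, by distance from the nearer edge of the window in kb (lower side to the left, Skap1 side to the right), in Hi-C and FGFR1 HiChIP for ESC and NCC; the vertical axis is linear near 0 and logarithmic above. In Hi-C the NCC line lies above the ESC line in all 10 bins of the first 500 kb on the Skap1 side.

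Skap1, an adaptor protein of T cells whose gene fills most of this stretch (96464593 to 96759130), held most of the partners. Its Hi-C read pairs with the HoxB window went from 1324 to 1846 (1.36, 1.27–1.46), over 226 and 227 kb of anchors. Beyond it, Cbx1, which encodes a heterochromatin protein, went from 33 to 61 (1.81, 1.16–2.85), and Sp6, a zinc finger factor of tooth development, from 62 to 20 (0.315, 0.180–0.529) while its anchors shrank from 16.9 to 9.90 kb. Tbkbp1, an adaptor of innate immune signalling further out, went from 42 to 15 (0.349, 0.180–0.642) over 18.8 and 21.1 kb. Copz2, Cdk5rap3, Snx11, Nfe2l1 and Sp2, the other genes named by the rule on this side, had ratios from 0.733 to 1.36 with intervals that included 1.

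On the lower side the nearest gene, Ttll6, a tubulin-modifying enzyme of cilia, went from 624 to 523 read pairs (0.819, 0.728–0.921), over 31.6 and 27.4 kb of anchors. B4galnt2, a glycosyltransferase, went from 76 to 107 (1.38, 1.02–1.87), and Snf8, a subunit of the endosomal sorting machinery, from 15 to 48 (3.13, 1.72–6.01) over 6.92 and 15.1 kb. Zfp652 (100 to 74; 0.723, 0.528–0.986) and Ngfr, the low-affinity neurotrophin receptor (60 to 28; 0.456, 0.280–0.725), lay further out and were lower in NCC. Calcoco2 and Igf2bp1 had intervals that included 1.

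FGFR1 HiChIP moved in the same directions as Hi-C at the window level, from far fewer read pairs. Within the cluster it held 253 read pairs in ESC and 173 in NCC (0.567, 0.464–0.690), and to the Skap1 side 169 and 308 (1.51, 1.25–1.83). Across the division between Hoxb6 and Hoxb5 there were 94 and 30 (0.265, 0.169–0.403). Pairs among Hoxb5 to Hoxb1, which were more in NCC in Hi-C, were fewer in NCC here, with 101 and 79 (0.648, 0.477–0.879), and those among Hoxb13 to Hoxb6, with 58 and 64, had an interval that included 1 (0.631–1.33). With identical anchors at both ends, 5 of which lay in the window, the Skap1-side ratio turned below 1, from 10 and 7 read pairs.

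By gene, FGFR1 read pairs within the cluster fell at Hoxb13 (48 to 19; 0.328, 0.182–0.569), Hoxb9 (61 to 47; 0.639, 0.427–0.9499), Hoxb6 (47 to 27; 0.476, 0.285–0.780), Hoxb5 (76 to 34; 0.371, 0.240–0.563) and Hoxb3 (101 to 77; 0.632, 0.464–0.859) with merged anchors. Per kb of anchor the 5 ratios were 0.298, 0.439, 0.848, 0.544 and 0.612. To the Skap1 side they rose at Hoxb7 (12 to 41; 2.83, 1.46–5.92), Hoxb4 (6 to 21; 2.90, 1.13–8.79), Hoxb3 (39 to 93; 1.98, 1.35–2.95) and Hoxb1 (11 to 41; 3.09, 1.56–6.67), or 1.94, 1.62, 1.92 and 2.57 per kb of anchor. At Hoxb5, which rose on this side in Hi-C, FGFR1 HiChIP had 27 and 33 read pairs (1.01, 0.591–1.75). The values of Hoxb3 take in anchors that the midpoint gave to Hoxb2. The nearest 50 kb of the Skap1 side held 13 read pairs in ESC and 84 in NCC, and 3.585 kb of FGFR1 anchors were called there in ESC against 16.5 kb in NCC, so the gain beside Hoxb1 cannot be told apart from the calling of anchors.

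Summed over the window, FGFR1 HiChIP stood at 0.776 (0.709–0.847) of the Hi-C level in ESC and 0.720 (0.660–0.784) in NCC, after scaling to the totals. Its anchors covered less of the window, 34.9% in ESC and 36.7% in NCC. Per kb of anchor and scaled to 1000000 read pairs, pairs within the cluster stood at 1.49 in FGFR1 HiChIP against 0.900 in Hi-C in ESC, and at 0.802 against 0.671 in NCC. Levels of single genes were not compared between the assays, because the same DNA can go to different genes in each, as with an FGFR1 anchor of 13847 bp over Hoxb2 that was assigned to Hoxb3.

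CTCF HiChIP, the shallowest assay, had more read pairs in NCC within the cluster as well as to the Skap1 side. The window held 52 read pairs within the cluster in ESC and 72 in NCC (1.59, 1.10–2.32) and 62 and 98 to the Skap1 side (1.82, 1.31–2.54). Without pairs under 20 kb, 33 and 36 remained within the cluster, and the interval included 1 (1.26, 0.761–2.08). With pairs inside single anchors counted, the ratio within the cluster was 1.79 (1.37–2.35). The Skap1-side gain lay at Hoxb13 to Hoxb6, with 27 and 63 (2.68, 1.69–4.38), while Hoxb5 to Hoxb1 had 35 and 35 (1.15, 0.699–1.89). Hoxb7 had 3 read pairs to the Skap1 side in ESC and 21 in NCC, a ratio with a wide interval (8.05, 2.40–42.2), and Hoxb9 had 15 and 29 (2.22, 1.15–4.46). Per kb of anchor these ratios were 5.39 at Hoxb7 and 1.54 at Hoxb9. Hoxb13 had 20 and 7 within the cluster (0.403, 0.144–0.991), but its anchors shrank from 10.613 to 3.491 kb, and the direction turned per kb of anchor (1.22) and in identical anchors (log2 ratio 1.20). CTCF anchors with the same ends in both cell types numbered 3 in the window, too few to repeat these values.

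The same contrast was then made for all protein-coding genes, with anchors assigned to the nearest of them. Near pairs reach up to 100 kb from the anchor, far pairs from 100 kb to 1 mb on the lower or the higher-coordinate side, and the tilt is the odds ratio of far higher to far lower pairs, which does not depend on scaling. Far pairs are counted by distance and include partners inside the HoxB window, so far higher and far lower pairs are not the same as the Skap1 and lower sides. Each was tested between the pooled libraries by an exact binomial test, or Fisher's exact test for the tilt, with Benjamini-Hochberg adjustment over all genes with at least 20 read pairs. In Hi-C 9 of the 10 members could be tested, and Hoxb1 also took the anchors between the window and Skap1. Since the tests count read pairs of 1 pooled library per cell type, a small adjusted p does not measure a difference between cultures.

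Near pairs passed a fold of 1.5 downward at 3 of 9 HoxB genes, against 15.6% of 19147 genes tested, and upward at 1 of 9, against 11.3%. At an adjusted p of 0.05 they were lower at 6, against 32.0%, and higher at 2, against 26.1%. The 3 that fell by the fold were Hoxb8/Hoxb7 (376 to 191; 0.496, exact binomial adjusted p = 6.30e-15), Hoxb6 and Hoxb4, and the last 2 carry the changes of anchor described above. Hoxb1, with the anchors toward Skap1 included, rose from 659 to 974 (1.44, exact binomial adjusted p = 1.83e-12). The median log2 ratio of the 9 was -0.32, against -0.04 over all genes.

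The tilt was called at a larger share of the HoxB genes than of all genes. It passed an odds ratio of 1.5 toward higher coordinates at 5 of 9 members, against 10.4% of all genes, and at an adjusted p of 0.05 at 4, against 3.77%. By Fisher's exact test these 4 were Hoxb5 (odds ratio 3.02, adjusted p = 0.000107), Hoxb3 (2.69, adjusted p = 7.70e-05), Hoxb2 (2.31, adjusted p = 0.000906) and Hoxb4 (2.20, adjusted p = 0.0476), a run of neighbours. Anchors were assigned by midpoint here, so the values of Hoxb5 and Hoxb4 compare different DNA in ESC and NCC. Hoxb8/Hoxb7 had an odds ratio of 1.77 with an adjusted p of 0.0820, while Hoxb9 (1.08), Hoxb1 (1.03) and Hoxb6 (1.15) were near 1. Hoxb13 tilted the other way (0.571, Fisher's exact test, adjusted p = 0.000312), the 1 member of 9 called toward lower coordinates, against 3.56% of all genes at this adjusted p and 10.2% by the odds ratio. Its far higher pairs went from 333 to 209, while its Skap1-side pairs went from 183 to 169, so this tilt takes in contacts within the cluster. Far lower pairs also exceeded lower-side pairs at Hoxb2 (104 to 55 against 78 to 52) and Hoxb3 (129 to 48 against 94 to 43). The tilt of these genes therefore takes in contacts within the cluster as well.

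Far lower pairs passed the fold downward at 4 of 9 members, against 16.9%, and upward at 1, against 9.45%. At an adjusted p of 0.05 the counts were 4, against 23.1%, and 1, against 13.7%. Hoxb4 and Hoxb5 exchange an anchor by midpoint, and these counts include Hoxb4 as lower (98 to 20) and Hoxb5 as higher (45 to 77). Hoxb3 went from 129 to 48 read pairs (0.364, exact binomial adjusted p = 5.25e-09). Far higher pairs passed the fold downward at 3, against 16.4%, and upward at 2, against 9.75%. The 2 were Hoxb8/Hoxb7 (141 to 284; 1.97, exact binomial adjusted p = 2.73e-10) and Hoxb5. The Hoxb5 anchors were enlarged in NCC and took in DNA that was counted for Hoxb4 in ESC. At an adjusted p of 0.05 they were lower at 3, against 22.8%, and higher at 3, against 13.8%.

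**Figure D4:**
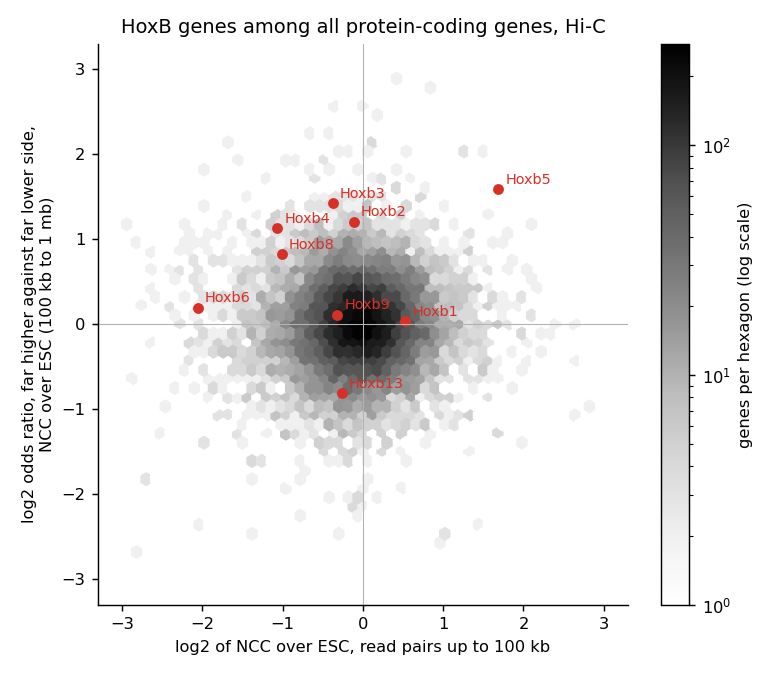
Near pairs (horizontal axis, log2 of the NCC over ESC ratio) against tilt (vertical axis, log2 odds ratio toward higher coordinates) in Hi-C for all protein-coding genes, shaded by the number of genes, with the HoxB genes marked and anchors assigned by midpoint. Hoxb2, Hoxb3, Hoxb4 and Hoxb5 lie in the upper part of the plot (tilt from 1.13 to 1.59 on the log2 scale), Hoxb8 below them at 0.82, and Hoxb13 at -0.81.

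Anchors that are identical in ESC and NCC have the same length in both, although their partners need not. Of the 9 such Hi-C anchors in the window, 3 had fewer near pairs in NCC at an adjusted p of 0.05, against 1.74% of 54933 identical anchors in the genome. By the exact binomial test they were the Hoxb8/Hoxb7 anchor (376 to 191; 0.496, adjusted p = 1.55e-11), the anchor over the start of Hoxb9 (0.679, adjusted p = 0.0152) and the one 96202362 to 96204576 next to Hoxb13 (0.586, adjusted p = 0.0145). The Hoxb8/Hoxb7 anchor also gained far higher pairs (141 to 284; 1.97, exact binomial adjusted p = 5.45e-07), which made it 1 of 4 anchors called so in the genome (0.0109% of those tested). Its ratio stood at percentile 97.5 of the identical anchors tested, so larger rises occurred, and the adjusted p also depends on the number of read pairs. By the fold of 1.5, near pairs were lower at 2 of 9, against 10.8%, and far higher pairs were higher at 1 of 9, against 9.88%. At an adjusted p of 0.05, 0 of 9 passed for far lower pairs, against 0.0789% lower and 0.0572% higher in the genome, and 0 of 9 for the tilt, against 0.00191% toward lower coordinates and 0.00% toward higher ones. By Fisher's exact test the tilt of the identical anchor of Hoxb4 was 3.09 (unadjusted p = 0.000147, adjusted p = 0.185) and that of Hoxb3 3.68 (unadjusted p = 0.00108, adjusted p = 0.408). The calls of tilt at the genes were thus not repeated at single identical anchors, which hold fewer read pairs.

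In FGFR1 HiChIP, near pairs of Hoxb1 rose from 48 to 195 (3.37, exact binomial adjusted p = 1.89e-14), and near pairs were higher at an adjusted p of 0.05 for 14.8% of the genes tested. They were lower at 3 of 9 members, against 22.7%: by the exact binomial test Hoxb13 (0.562, adjusted p = 0.0142), Hoxb6 (0.484, adjusted p = 0.00944) and Hoxb5 (0.482, adjusted p = 0.000754). Hoxb1 also takes the anchors next to the window on the Skap1 side.

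The other Hox clusters also had fewer Hi-C pairs within the cluster relative to the flanks in NCC. In Hi-C, the odds ratio of pairs within the cluster against pairs with both flanks was 0.655 (0.604–0.710) for HoxB, 0.702 (0.634–0.777) for HoxA, 0.621 (0.563–0.685) for HoxC and 0.623 (0.545–0.713) for HoxD, and no difference from HoxB passed the test in a binomial logistic model (adjusted p = 0.478, 0.535 and 0.538 over 9 tests). By the same binomial model, in FGFR1 HiChIP HoxB (0.483) was lower than HoxA (0.948, adjusted p = 0.0155), and in CTCF HiChIP, HoxD (0.254) was lower than HoxB (1.07, adjusted p = 0.00337). In Hi-C, the ratio to the flank at higher coordinates was 1.23 for HoxB, 1.28 for HoxC, 1.27 for HoxD and 0.785 for HoxA. To the flank at lower coordinates it was 0.946, 1.04, 0.688 and 1.49 in the same order. Of the Hoxa, Hoxc and Hoxd genes, 10 of 26 tested passed the fold downward in near pairs and 7 of 26 tilted toward higher coordinates by an odds ratio of 1.5.

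Among 8780 genes with at least 200 read pairs over both libraries in each of the near, far lower and far higher classes, Gm42715, Mkrn1 and Ankrd45 had 3 log2 ratios closest to the medians of the HoxB genes, at Euclidean distances of 0.0277, 0.0458 and 0.0696. All 3 medians are the values of Hoxb9 (-0.320, 0.0964 and 0.213), so closeness to them is closeness to Hoxb9.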

How the data were processed

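As deposited, each table lists interactions as pairs of anchors with a count of read pairs. The authors made these counts by aligning to mm10 and removing duplicates in HiC-Pro and by assigning the valid pairs in hichipper to anchors called from each sample's own reads, with no filter on q. Each table combines the 2 replicates, which the authors merged. Tool versions are not given in the sources used here. The paper describes normalizing valid-pair numbers between compared cell types. Whether the deposited counts carry that step is not known, and their totals differed between ESC and NCC. No further normalization between cell types was made here beyond scaling the counts to the table total, and 0 other columns of values were left out. Pairs inside a single anchor were left out. Anchors start and end at GATC sites of GRCm38. Genes were those of GENCODE release M21.

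The members and gene lists were chosen with earlier results of these data known. Flank genes were named by a rule: per side, the 5 with the most Hi-C read pairs and the 3 with the largest rise and fall, and Skap1. Ratios have exact (Clopper-Pearson) intervals at 95%. Python 3.11.15, numpy 2.4.6, scipy 1.17.1, statsmodels 0.14.6, pandas 2.3.3, pysam 0.24.0 and matplotlib 3.10.9 were used, and the tests were tested on simulated data. Alternatives changed the scaling, the distance and score minimum, the assignment and the fold.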

Additional observations from a re-analysis of the deposited data

How the results depend on the processing

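The log2 ratios of the window kept their direction under the other scalings, and moved as follows. Within the cluster, the Hi-C value was -0.71 without pairs under 20 kb, -0.22 with pairs inside single anchors and -0.57 in identical anchors, and the FGFR1 value -1.26, -0.37 and -1.27. With a score of at least 2, Hi-C gave 0.057 to the lower side and 0.57 to the Skap1 side, FGFR1 HiChIP -0.96 and 2.66, and CTCF HiChIP 1.80 within the cluster and 1.07 to the lower side. In identical anchors the Skap1-side value was 0.45 in Hi-C and -0.79 in FGFR1 HiChIP, and CTCF HiChIP gave no value on the lower side. The identical, merged and base-divided anchors were chosen after seeing the data. In all reversals the cause was not tested beyond the change of anchors that each setting makes.

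By nearest 5′ end, Hi-C log2 ratios reversed at Hoxb8 to the Skap1 side (-0.37), at Hoxb6 (0.25 within, 0.32 lower, 1.07 Skap1 side), at Hoxb5 (-1.30, -1.44 and -0.16) and at Hoxb4 (0.10 within, 0.74 Skap1 side), and the FGFR1 value of Hoxb3 to the Skap1 side (-1.46). With gene bodies widened by 5 kb they reversed at Hoxb6 to the Skap1 side (0.42), at Hoxb5 (-0.45 within, -0.74 lower), at Hoxb4 (0.054 within, 0.78 Skap1 side) and in CTCF HiChIP at Hoxb9 (-0.38 lower, -1.02 Skap1 side). With merged anchors Hoxb5 to the lower side was -0.090 and Hoxb4 to the Skap1 side 0.28, and Hoxb4 was 0.31 with anchors divided by bases. In identical anchors Hoxb4 to the Skap1 side was 0.66, Hoxb1 within -0.17, FGFR1 Hoxb3 to the Skap1 side -1.27 and CTCF Hoxb13 within 1.20.

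Counts of genes with an interval off 1 moved too. Within the cluster, 7 were lower and 3 in identical anchors, and 2 were higher, against 1 without pairs under 20 kb, 0 by nearest 5′ end, 1 with widened bodies and 0 in identical anchors. On the lower side, 4 were lower and 0 in identical anchors, and 1 was higher, against 2 when scaled to chromosome 11, 2 when scaled to pairs of the same distances, 2 with a score of at least 2, and 0 with widened bodies, merged or identical anchors. On the Skap1 side, 2 were lower, against 0 with widened bodies, 1 with merged anchors, 1 by bases and 0 in identical anchors, and 4 were higher, against 7 with widened bodies and 1 in identical anchors. Calls over all genes moved for near pairs by fold, higher (1 to 2 with a score of at least 2), far lower pairs, higher (1 to 0 at a fold of 2, and by adjusted p 1 to 2 at a 50 kb division), far higher pairs, higher (2 to 1 at a fold of 2 and 1 at a 50 kb division) and tilt, lower (1 to 0 at a fold of 2).

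In the binomial model, the log2 difference of HoxA from HoxB passed in Hi-C with a score of at least 2 (0.26, adjusted p = 0.0312) and in CTCF HiChIP with single-anchor pairs (-0.94, adjusted p = 0.0424), and was lost in FGFR1 HiChIP with single-anchor pairs (0.56, adjusted p = 0.110) and a score of at least 2 (0.67, adjusted p = 0.340). In that binomial model, the difference of HoxC passed in Hi-C with single-anchor pairs (-0.20, adjusted p = 0.0424) and in CTCF HiChIP with a score of at least 2 (-3.80, adjusted p = 0.000552). No paired analysis was possible because each table merges its 2 replicates, and for the same reason no replicate could be left out. Depth limits the HiChIP values by gene, many of which rest on fewer than 20 read pairs.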
